A study of Homo sapiens with 24 samples.

Results

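The MAP kinase phosphatases described here are DUSP1, DUSP2, DUSP4, DUSP5, DUSP6 and DUSP7, 6 of the 13033 genes in the authors' expression table. They were chosen by name, as dual-specificity phosphatases that act on MAP kinases, and all 6 were in the table. Earlier results of these data were known at that choice, so counts of called members are descriptions. Other phosphatases of this kind are described further below. Their RNA was measured in 2 human acute myeloid leukaemia cell lines. OCIAML-3 (the OCI-AML3 line) carries an NRAS Q61L mutation, and Molm-14 carries an internal tandem duplication of the FLT3 receptor (FLT3-ITD), per the labels. Each line was given 25 nM RMC-7977, an inhibitor of the active, GTP-bound form of RAS proteins, for 2 h or 24 h, or DMSO, the solvent. The 6 groups were therefore OCIAML-3 at 2 h, at 24 h and in DMSO, and Molm-14 at 2 h, at 24 h and in DMSO. Each had 4 libraries of poly(A) RNA, except OCIAML-3 at 24 h (n = 3), whose replicate 3 was not analysed here. Each line is 1 established line, and its single DMSO group, which has no stated time, served as the control for both times, so the 2 h and 24 h comparisons share their controls.

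MAP kinase phosphatases remove the phosphates that switch MAP kinases on. Many of their genes are themselves switched on by ERK, the last kinase of the RAS, RAF and MEK cascade, so that they act as negative feedback on it, and the RNA of DUSP6 in particular is widely read as a sign of ERK output. DUSP6 and DUSP7 are cytoplasmic and act mainly on ERK. DUSP5 is nuclear and also selective for ERK, while DUSP1, DUSP2 and DUSP4 are nuclear, inducible and act on ERK and, to differing degrees, on the JNK and p38 kinases.

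RefSeq promoter windows (GRCh38.p14) were used for DUSP1, DUSP2, DUSP6 and DUSP7. No window was searched for DUSP4 or DUSP5, so their motifs are not described. The 250 bases before the annotated start of 3 of them are printed, for the member with no called change after the drug (DUSP1) and for the 2 that fell furthest in OCIAML-3 at 24 h (DUSP2 and DUSP6). All 3 genes lie on the minus strand. The windows are chr5:172771196-172771445 for DUSP1, chr2:96145441-96145690 for DUSP2 and chr12:89352502-89352751 for DUSP6. Each is written 5′ to 3′ with matches to the searched motifs in capitals.
DUSP1: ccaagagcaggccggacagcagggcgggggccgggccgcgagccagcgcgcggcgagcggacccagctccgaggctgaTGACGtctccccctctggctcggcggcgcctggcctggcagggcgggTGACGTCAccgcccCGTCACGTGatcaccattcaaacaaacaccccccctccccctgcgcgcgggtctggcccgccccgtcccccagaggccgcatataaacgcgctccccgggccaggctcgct
DUSP2: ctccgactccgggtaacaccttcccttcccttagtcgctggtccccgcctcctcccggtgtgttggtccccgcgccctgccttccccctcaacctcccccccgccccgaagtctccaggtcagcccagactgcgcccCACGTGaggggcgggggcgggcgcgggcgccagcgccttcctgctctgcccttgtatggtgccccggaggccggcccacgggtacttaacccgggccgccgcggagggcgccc
DUSP6: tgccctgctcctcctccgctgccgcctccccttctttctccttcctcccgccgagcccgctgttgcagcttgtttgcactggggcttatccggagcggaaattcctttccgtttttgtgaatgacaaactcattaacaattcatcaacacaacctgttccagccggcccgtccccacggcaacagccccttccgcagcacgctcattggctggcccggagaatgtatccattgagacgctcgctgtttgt
The motifs, read on both strands, were the full cyclic AMP response element TGACGTCA, its partial form TGACG, the ETS site CCGGAA, the AP-1 site TGANTCA and the E-box CACGTG. DUSP1 held the full element at position -125 from the start, a motif found in 1.65% of 35116 promoter windows of the same length. It also held 4 matches to TGACG, a motif found in 21.2% of windows. A pair of these lie within the full element, and another overlaps an E-box at -108. DUSP2 held 1 E-box, found in 6.34% of windows, and DUSP6 and DUSP7 held no match. CCGGAA was found in 14.5% of windows and TGANTCA in 6.57%, and neither was found in these 4. Matches are letters only, and no binding was measured. The start in this window of DUSP6 lies inside the GENCODE gene, which begins further upstream.

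The table held log2 CPM (reads of a gene per 1000000 reads of the library, on the authors' scaling). Values below are back-transformed to CPM. They include a small constant, so that a gene with no reads stands at 0.105 CPM. Effective library sizes recovered from the spacing of low values were 15350000 to 22390000 reads (median 18450000). All 23 libraries were closer to every library of their own group (lowest Pearson r 0.993) than to any other (highest 0.959), across genes. Of 16 myeloid markers 14 were in the table, and their summed level was 3499 to 9335 CPM in OCIAML-3 and 2689 to 4083 CPM in Molm-14. CD3D and HBB were not in the table. The lymphoid genes present were TRAC and NKG7 (2 of 7 markers, summed to 1.17 to 2.83 CPM in OCIAML-3 and 17.2 to 30.1 CPM in Molm-14) and PAX5 (1 of 5 B-cell markers, 0.309 to 0.773 CPM in OCIAML-3 and 8.28 to 22.2 CPM in Molm-14). Of erythroid and platelet markers only ITGA2B was present (1 of 8, 1.29 to 12.9 CPM in OCIAML-3 and 0.105 to 1.55 CPM in Molm-14). Of epithelial, stromal and endothelial markers KRT18, COL1A2 and PECAM1 were present (3 of 8). They summed to 32.5 to 80.1 CPM in OCIAML-3 and 87.6 to 174 CPM in Molm-14. EPCAM, KRT8, COL1A1, VWF and CDH5 were not in the table. The part of these markers in the differences between lines was not tested. In bulk RNA, fewer cells that express a gene and less RNA per cell cannot be told apart.

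After 2 h of RMC-7977, DUSP2, DUSP4 and DUSP6 fell in both lines, and DUSP5 and DUSP7 also fell in Molm-14. After 24 h the lines had parted: DUSP2, DUSP4, DUSP5 and DUSP6 were lower than in DMSO in OCIAML-3, and only DUSP2 of the 6 was called lower in Molm-14. No member was called higher than in DMSO in any of the 4 comparisons, where 3.23% and 18.4% of all genes were in OCIAML-3 at 2 and 24 h and 4.3% and 11.4% in Molm-14. A gene was called at a Benjamini-Hochberg adjusted p below 0.05 in limma over all 13033 genes with a log2 fold change of at least 1 in size, and "rose" and "fell" are kept for called genes. In OCIAML-3 at 2 h, 3 of 6 members were called lower, against 3.35% of all genes. In OCIAML-3 at 24 h it was 4 of 6, against 17.1% of all genes. In Molm-14 at 2 h it was 5 of 6, against 2.98%, and at 24 h 1 of 6, against 6.57%. With 1 CPM added to every value before the logarithm, the Molm-14 count at 2 h was 3, since DUSP4 (-0.96) and DUSP5 (-0.98) were then short of the fold limit. For DUSP4 that constant is close to its whole mean level in Molm-14 in DMSO (1.315 CPM). This setting compresses its change and does not test the fall in its reads. The median log2 fold change of the members was -1.97 and -1.96 in OCIAML-3 at 2 and 24 h and -1.34 and -0.45 in Molm-14, where the median of all genes was between 0.00 and 0.02. On the adjusted p alone, at any fold, all 6 members were lower in OCIAML-3 at each time, where 30.8% of all genes passed in that direction at 2 h and 42% at 24 h. In Molm-14 it was 5 members at 2 h (30.8% of genes) and 3 at 24 h (38.6%).

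**Figure D1:**
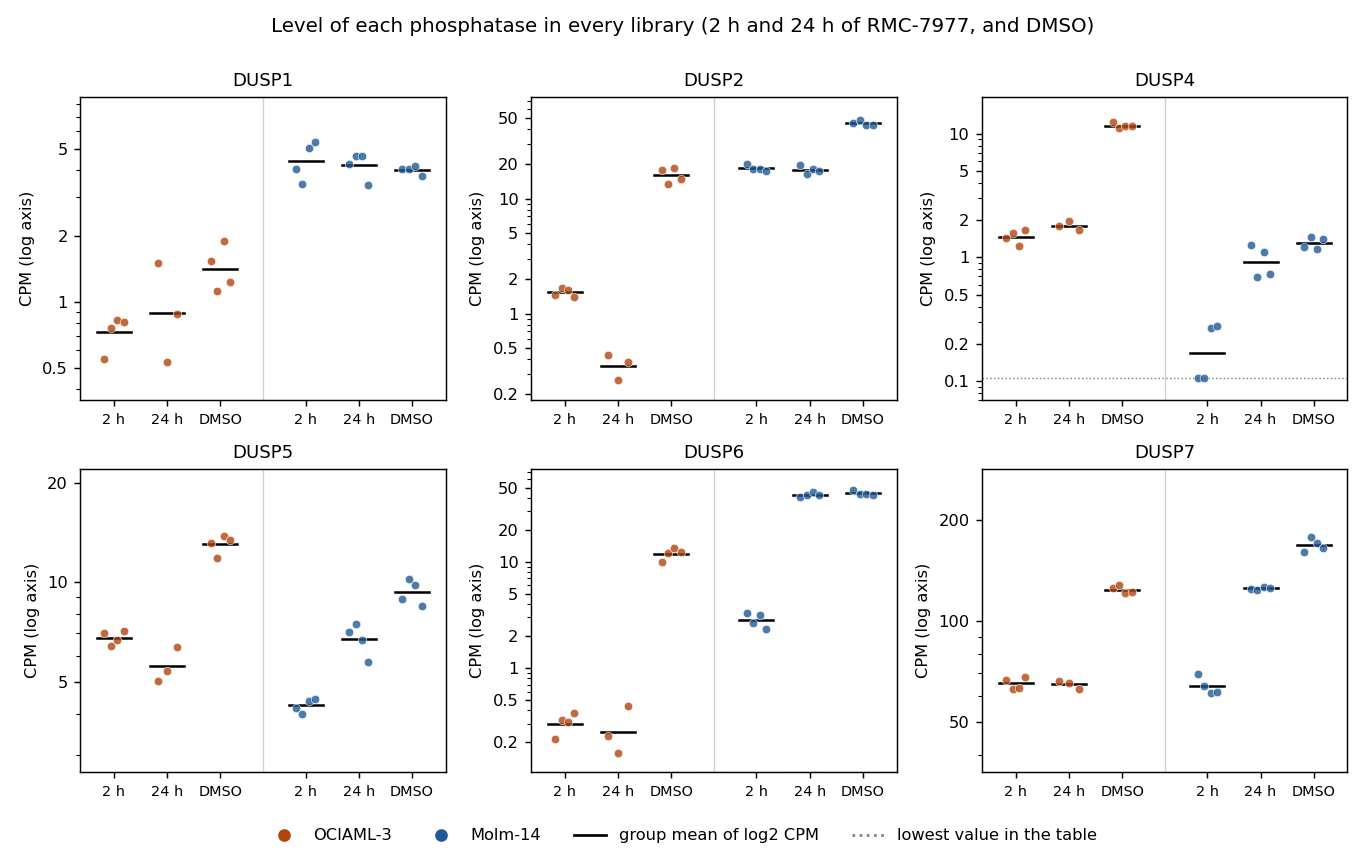
CPM of the 6 phosphatases in each library on log axes, for OCIAML-3 (orange) and Molm-14 (blue) at 2 h and 24 h of RMC-7977 and in DMSO; bars are group means of log2 CPM and the dotted line is the lowest value in the table. DUSP6 in Molm-14 was at 2.31 to 3.32 CPM at 2 h and 40.3 to 45.2 CPM at 24 h, whereas in treated OCIAML-3 libraries it was at 0.158 to 0.437 CPM.

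DUSP6 (chr12:89347232-89353271, minus strand), the cytoplasmic ERK phosphatase, fell at 2 h in each line. At 24 h its libraries overlapped their DMSO range in Molm-14 and stayed far below it in OCIAML-3. In OCIAML-3 it had 0.216, 0.323, 0.310 and 0.376 CPM in the 2 h libraries and 0.229, 0.158 and 0.437 CPM in the 24 h libraries, against 9.96, 12.1, 13.4 and 12.4 CPM in the DMSO libraries. The treated libraries lay far below the DMSO libraries and overlapped each other. The 2 h libraries held 15 reads in all and the 24 h libraries 9, against 955 in DMSO, so ratios of summed reads with exact 95% intervals are given, which cover counting error only. The level was 58.7-fold lower at 2 h (35.4 to 105) and 72.2-fold lower at 24 h (37.9 to 158). The limma log2 fold changes were -5.31 ± 0.20 (SE, adjusted p = 1.78e-19) and -5.56 ± 0.21 (adjusted p = 2.39e-20). At 24 h against 2 h the log2 fold change was -0.26 (adjusted p = 0.267), and the ratio of reads was 0.814 (0.314 to 1.98), so a difference between the times was not detectable at this depth.

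In Molm-14 DUSP6 had 3.32, 2.64, 3.15 and 2.31 CPM at 2 h and 40.3, 42.5, 45.2 and 42.2 CPM at 24 h, against 47.1, 43.7, 43.0 and 42.3 CPM in DMSO. The 2 h libraries stood apart below all others, and the 24 h and DMSO ranges overlapped. The fall at 2 h was -3.96 ± 0.20 (adjusted p = 1.12e-16), or 15.8-fold in summed reads (13.8 to 18.3). At 24 h the log2 fold change against DMSO was -0.05 ± 0.20 (adjusted p = 0.834), and against 2 h it was 3.91 ± 0.20 (adjusted p = 8.86e-17). Of the fall at 2 h on the log2 scale, 98.7% had been regained at 24 h. The antisense transcript annotated across DUSP6 was not in the table, and the strand setting of the counting is not given in the sources used here.

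DUSP7 (chr3:52048919-52056550, minus strand), the close relative of DUSP6 in the cytoplasm, was also lower at 2 h in each line, by less than DUSP6. In OCIAML-3 it had 66.6, 62.9, 63.2 and 68.4 CPM at 2 h and 66.5, 65.4 and 62.9 CPM at 24 h, against 126, 128, 121 and 122 CPM in DMSO. Treated and DMSO libraries did not overlap. The log2 fold changes, -0.93 ± 0.04 (adjusted p = 2.14e-17) and -0.94 ± 0.05 (adjusted p = 1.16e-17), passed the p and stayed short of the fold limit. In Molm-14 it had 69.8, 63.9, 61.3 and 61.6 CPM at 2 h and 125, 124, 127 and 125 CPM at 24 h, against 161, 178, 171 and 165 CPM in DMSO. The 3 groups did not overlap. DUSP7 fell at 2 h, at -1.396 ± 0.044 on the log2 scale (adjusted p = 8.25e-22). At 24 h it was at -0.43 ± 0.04 against DMSO (adjusted p = 3.1e-10), with 69.2% of the fall regained. Between 24 h and 2 h the difference was 0.97 ± 0.04 (adjusted p = 3.33e-18), just short of the limit, and past it without Molm-14 2 h replicate 1 (1.01).

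DUSP5 (chr10:110497838-110511544, plus strand), the nuclear phosphatase selective for ERK, followed a similar course in Molm-14 and had not recovered in OCIAML-3. In OCIAML-3 it had 7.01, 6.43, 6.67 and 7.11 CPM at 2 h and 5.01, 5.39 and 6.36 CPM at 24 h, against 13.1, 11.8, 13.8 and 13.4 CPM in DMSO. At 2 h the log2 fold change was -0.94 ± 0.10 (adjusted p = 1.96e-09), short of the fold limit. At 24 h it fell, by 1.23 ± 0.11 (adjusted p = 8.28e-12). All 7 treated libraries lay below all DMSO libraries. In Molm-14 it had 4.16, 3.99, 4.37 and 4.42 CPM at 2 h and 7.08, 7.50, 6.71 and 5.74 CPM at 24 h, against 8.89, 10.3, 9.83 and 8.48 CPM in DMSO. The 3 groups did not overlap, with the 24 h libraries between the others. DUSP5 fell at 2 h by 1.14 ± 0.10 (adjusted p = 3.03e-11). At 24 h it was at -0.47 ± 0.10 (adjusted p = 9.22e-05), with 58.5% of the fall regained. A pseudogene, DUSP5P1, was also in the table, at a mean of 1.278 CPM at 2 h, 0.982 CPM at 24 h and 0.849 CPM in DMSO in OCIAML-3, and 5.98, 10.4 and 3.75 CPM in the same order in Molm-14. Reads of the pair could have been split between them, so the values of DUSP5 are uncertain to that extent.

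DUSP2 (chr2:96143166-96145440, minus strand), a nuclear phosphatase best known from activated blood cells, was the only member called lower in all 4 comparisons with DMSO. In OCIAML-3 it had 1.44, 1.68, 1.59 and 1.41 CPM at 2 h and 0.439, 0.265 and 0.381 CPM at 24 h, against 17.8, 13.3, 18.5 and 14.7 CPM in DMSO. The 3 groups did not overlap, and the 24 h libraries were the lowest. The log2 fold changes against DMSO were -3.38 ± 0.12 at 2 h (adjusted p = 3.25e-20) and -5.49 ± 0.13 at 24 h (adjusted p = 6.11e-26). From 14 reads at 24 h against 1290 in DMSO, the level was 62.7-fold lower (37.2 to 115). DUSP2 was the only member called between 24 h and 2 h in OCIAML-3, at -2.11 ± 0.13 (adjusted p = 3.36e-15) or 5.58-fold lower in summed reads (3.18 to 10.6). There, 1 of 6 members was called lower, against 10.9% of all genes, and none higher, against 11.6%. With 1 CPM added, which compresses a change from a mean as low as that at 2 h (1.53 CPM), it was at -0.89 and not called.

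In Molm-14 DUSP2 had 20.1, 18, 18.2 and 17.4 CPM at 2 h and 19.5, 16.4, 18.1 and 17.2 CPM at 24 h, against 45.1, 47.8, 43.8 and 43.8 CPM in DMSO. The treated groups overlapped each other and not DMSO. It fell by 1.29 ± 0.12 at 2 h (adjusted p = 1.27e-10) and by 1.34 ± 0.12 at 24 h (adjusted p = 2.13e-11). The difference of 24 h against 2 h was -0.05 (adjusted p = 0.732), so DUSP2, at about 40.9% of its DMSO level at 2 h and 39.4% at 24 h, was the only one of the 5 fallen at 2 h that was still called lower at 24 h. The levels of treated Molm-14 overlapped those of OCIAML-3 in DMSO.

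DUSP4 (chr8:29333064-29350668, minus strand), a nuclear relative of DUSP1, fell in both lines at 2 h and had few reads in Molm-14. In OCIAML-3 it had 1.44, 1.58, 1.23 and 1.68 CPM at 2 h and 1.78, 1.98 and 1.66 CPM at 24 h, against 12.4, 11.2, 11.5 and 11.5 CPM in DMSO. The treated libraries overlapped each other and lay far below DMSO. The log2 fold changes were -2.99 ± 0.26 at 2 h (adjusted p = 3.56e-11) and -2.69 ± 0.28 at 24 h (adjusted p = 4.36e-10). In Molm-14 it had 0.105, 0.105, 0.267 and 0.277 CPM at 2 h and 1.25, 0.692, 1.10 and 0.738 CPM at 24 h, against 1.21, 1.47, 1.17 and 1.41 CPM in DMSO. The 2 h libraries, of which a pair held no read, stood below all others, and the 24 h and DMSO ranges overlapped. From 6 reads at 2 h and 85 in DMSO the level was 15.2-fold lower at 2 h (6.69 to 42.5), with a log2 fold change of -2.96 ± 0.26 (adjusted p = 3.91e-11). At 24 h, with 64 reads, the log2 fold change against DMSO was -0.51 ± 0.26 (adjusted p = 0.0748). Against 2 h it was 2.44 ± 0.26 (adjusted p = 1.47e-09), a ratio of reads of 10.8 (4.72 to 30.7). DUSP4 and DUSP6 were the 2 of 6 members that rose between 2 h and 24 h in Molm-14, where 7.25% of all genes did and 3.38% fell. With 1 CPM added, a constant above its mean level at 24 h (0.946 CPM), DUSP4 was at 0.70 there and not called.

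DUSP1 (chr5:172768090-172771195, minus strand), an immediate early gene whose product acts on p38, JNK and ERK, was the only member with no called change against DMSO in either line. In OCIAML-3 it had 0.550, 0.759, 0.830 and 0.809 CPM at 2 h and 1.498, 0.532 and 0.879 CPM at 24 h, against 1.53, 1.12, 1.89 and 1.23 CPM in DMSO. The 2 h libraries lay below all DMSO libraries, and the 24 h libraries overlapped both. The log2 fold change was -0.96 ± 0.23 at 2 h (adjusted p = 5.8e-04) and -0.67 ± 0.25 at 24 h (adjusted p = 0.0134), each short of the fold limit. These calls rest on single libraries and on few reads, 47 in all at 2 h and 47 at 24 h, against 109 in DMSO. Without OCIAML-3 24 h replicate 1 the 24 h value was -1.05 and called (adjusted p = 2.38e-04). The 2 h value was called without DMSO replicate 2 (-1.07) or 4 (-1.03) or without 2 h replicate 3 (-1.02) or 4 (-1.01). In Molm-14 DUSP1 had 4.03, 3.45, 5.02 and 5.39 CPM at 2 h and 4.27, 4.64, 4.61 and 3.41 CPM at 24 h, against 4.06, 4.03, 4.15 and 3.76 CPM in DMSO. The 3 groups overlapped. The log2 fold changes were 0.14 ± 0.23 (adjusted p = 0.627) and 0.07 ± 0.23 (adjusted p = 0.788).

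**Figure D2:**
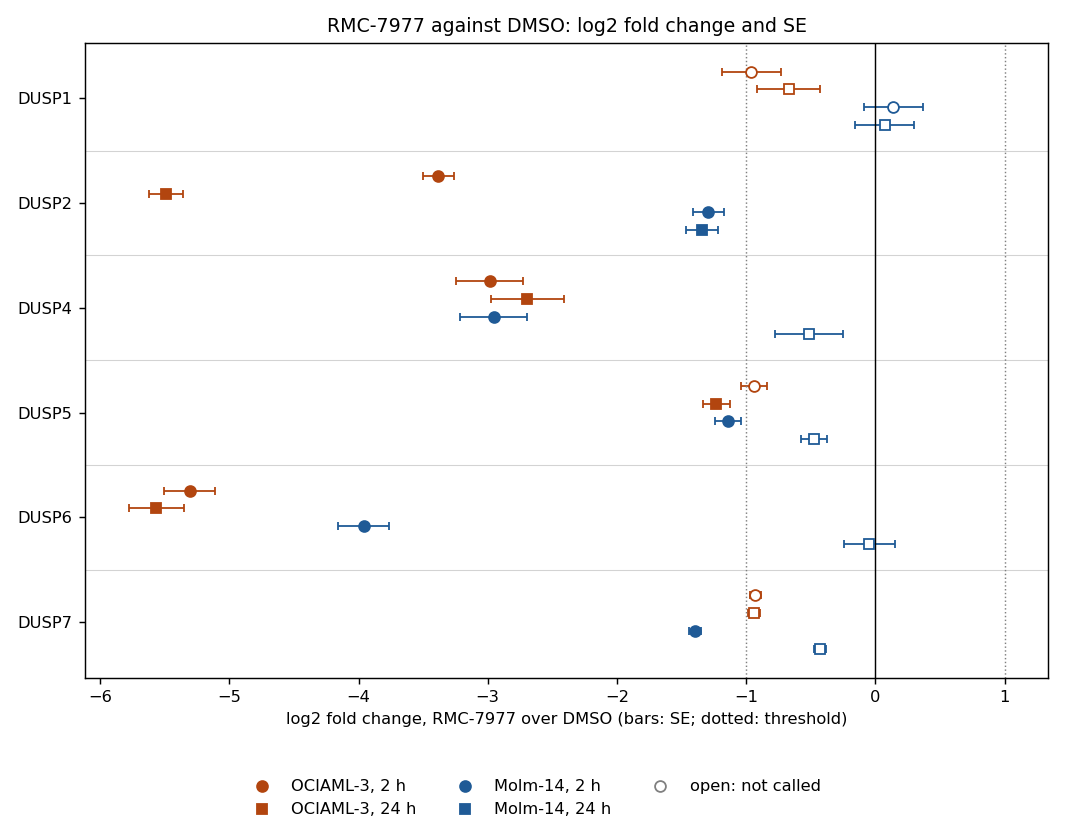
Log2 fold change of each phosphatase in RMC-7977 over DMSO, with bars of 1 SE, at 2 h (circles) and 24 h (squares) in OCIAML-3 (orange) and Molm-14 (blue); filled symbols are called and dotted lines mark the fold limit. In OCIAML-3 the 24 h value of DUSP6 (-5.56) lay beside its 2 h value (-5.31), and in Molm-14 it lay at -0.05 against -3.96 at 2 h.

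The lines already differed in DMSO. OCIAML-3 had a higher level of DUSP4 than Molm-14, by 3.16 ± 0.26 on the log2 scale (adjusted p = 2.42e-12), with means of 11.7 ± 0.522 and 1.31 ± 0.147 CPM (SD, n = 4 each). It had lower levels of DUSP6 (-1.89 ± 0.20, adjusted p = 5.41e-10), DUSP2 (-1.501 ± 0.121, adjusted p = 1.19e-12) and DUSP1 (-1.497 ± 0.228, adjusted p = 6.43e-07). DUSP5 (0.48 ± 0.10) and DUSP7 (-0.44 ± 0.04) differed by less than the fold limit. So 1 of 6 was called higher and 3 lower, in a comparison that called 17.9% of all genes higher and 12.2% lower. In the order of all 6 group levels, DUSP6 was highest in Molm-14 in DMSO and at 24 h, then in OCIAML-3 in DMSO, then in Molm-14 at 2 h, and lowest in treated OCIAML-3. For DUSP7 the levels of OCIAML-3 at 2 h and 24 h and of Molm-14 at 2 h overlapped, with means of 65.3 ± 2.68, 64.9 ± 1.83 and 64.2 ± 3.94 CPM (SD, n = 4, 3 and 4).

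The response itself was then compared between the lines, as the log2 fold change in OCIAML-3 minus that in Molm-14. At 24 h DUSP6 (-5.52 ± 0.29, adjusted p = 4.97e-16), DUSP2 (-4.15 ± 0.18, adjusted p = 1.96e-18) and DUSP4 (-2.18 ± 0.38, adjusted p = 1.36e-05) were called lower in OCIAML-3, 3 of 6 against 9.75% of all genes, and none higher, against 8.09%. DUSP5 (-0.76 ± 0.15, adjusted p = 4.93e-05) and DUSP7 (-0.51 ± 0.06, adjusted p = 5.94e-08) had differences of the same sign below the fold limit. For DUSP1 the value was -0.75 ± 0.34 (adjusted p = 0.0526), and -1.12 (adjusted p = 0.00257) without OCIAML-3 24 h replicate 1. At 2 h DUSP2 (-2.09 ± 0.17, adjusted p = 2.94e-11), DUSP6 (-1.35 ± 0.28, adjusted p = 3.02e-04) and DUSP1 (-1.10 ± 0.32, adjusted p = 0.00762) were called lower in OCIAML-3, 3 of 6 against 3.52% of all genes, and none higher, against 2.12%.

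The 2 h differences of DUSP6, DUSP1 and DUSP4 depended on the scale or on single libraries. DUSP6 stood at 0.25 (adjusted p = 0.123) once 1 CPM was added to every value. That constant lies above its mean in OCIAML-3 at 2 h (0.306 CPM). It compresses the fall there, so this setting cannot decide the difference. In summed reads DUSP6 was 58.7-fold lower in OCIAML-3 at 2 h (35.4 to 105) and 15.8-fold lower in Molm-14 (13.8 to 18.3). DUSP1, at a mean of 1.445 CPM in OCIAML-3 in DMSO, lost its call with 1 CPM added (-0.60). It also lost it without OCIAML-3 DMSO replicate 3 (-0.96) and without OCIAML-3 2 h replicate 1 (-0.97). For DUSP4 the difference was -0.03 with a 95% interval of -0.79 to 0.73 (adjusted p = 0.958). It was -1.39 (adjusted p = 9.58e-10) with 1 CPM added and 1.10 (adjusted p = 0.111) with voom on recovered reads, so that with 6 reads in Molm-14 at 2 h its direction was not determined. DUSP7 differed the other way, by 0.47 ± 0.06 (adjusted p = 4.15e-07), a smaller decrease in OCIAML-3, under the fold limit. For DUSP5 the difference was 0.20, with an interval of -0.09 to 0.49 (adjusted p = 0.272). Between 24 h and 2 h, DUSP6 (-4.17 ± 0.29), DUSP4 (-2.15 ± 0.38) and DUSP2 (-2.06 ± 0.18) were called lower in OCIAML-3 than in Molm-14, 3 of 6 against 7.6% of all genes, and none higher, against 6.7% (adjusted p = 3.8e-13, 1.89e-05 and 2.99e-11 in the same order). With 1 CPM added, which compresses changes at low levels, DUSP4 (-0.53) and DUSP2 (-0.85) were no longer called. DUSP5 (-0.96 ± 0.15, adjusted p = 1.82e-06) and DUSP7 (-0.97 ± 0.06, adjusted p = 7.41e-14) were just short of the limit. DUSP5 passed it without Molm-14 24 h replicate 4 (-1.03) or OCIAML-3 24 h replicate 4 (-1.05), and DUSP7 without Molm-14 2 h replicate 1 (-1.01).

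**Figure D3:**
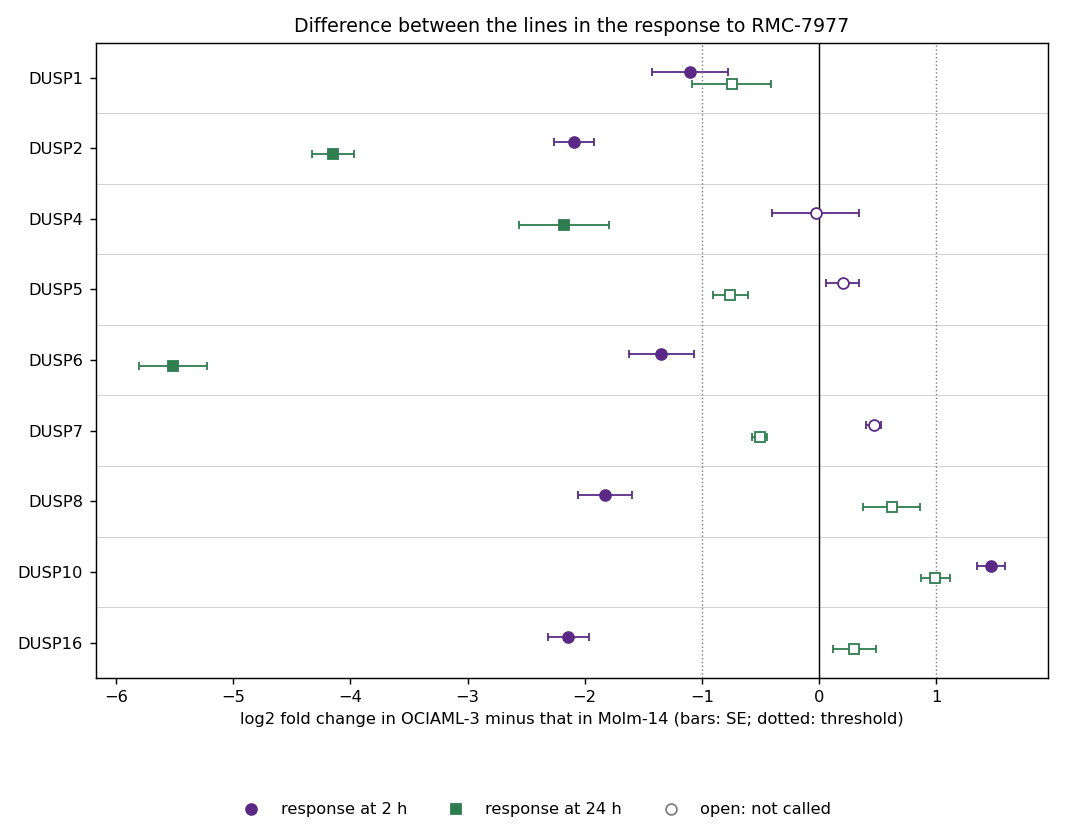
Log2 fold change in OCIAML-3 minus that in Molm-14, with bars of 1 SE, for the response to RMC-7977 at 2 h (circles) and 24 h (squares); filled symbols are called and dotted lines mark the fold limit. All 6 members lie left of 0 at 24 h, DUSP6 furthest at -5.52, and DUSP8 and DUSP16 lie left of -1 at 2 h; DUSP9, at or near 0 reads in Molm-14, is not drawn.

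Of the 5 other MAP kinase phosphatases in the table, none was called lower at 2 h in either line, where 3.35% of all genes were in OCIAML-3 and 2.98% in Molm-14. DUSP8, DUSP10 and DUSP16 act mainly on JNK and p38, DUSP9 is a further cytoplasmic relative of DUSP6 and DUSP7, and STYXL1 is a related protein without phosphatase activity. DUSP8 and DUSP16 rose in Molm-14 at 2 h and had come down again at 24 h. DUSP8 had 28.5, 25.6, 25.6 and 25.2 CPM in Molm-14 at 2 h and 7.83, 6.25, 5.997 and 7.83 CPM at 24 h, against 4.29, 6.16, 5.73 and 5.19 CPM in DMSO. DUSP16 had 18.2, 17.04, 18.8 and 18.9 CPM at 2 h and 5.31, 5.34, 5.19 and 5.17 CPM at 24 h, against 4.71, 4.79, 4.55 and 4.07 CPM in DMSO. All 2 h libraries lay above all others for both genes. The rises at 2 h were 2.31 ± 0.16 (adjusted p = 2.42e-13) for DUSP8 and 2.01 ± 0.12 (adjusted p = 1.1e-14) for DUSP16. From 2 h to 24 h they fell by 1.92 ± 0.16 (adjusted p = 9.64e-12) and 1.80 ± 0.12 (adjusted p = 9.54e-14), and at 24 h neither was called against DMSO (0.39 and 0.22). Of these 5 genes 2 were called higher in Molm-14 at 2 h, against 4.3% of all genes, and 0 were called at 24 h, where 11.4% of all genes were higher and 6.57% lower. At an unadjusted p below 0.05 in limma 3 of the 5 passed at 24 h, and voom also called 0.

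In OCIAML-3 DUSP16 was not called at either time, at -0.13 ± 0.12 at 2 h (adjusted p = 0.372) and 0.52 ± 0.13 at 24 h (adjusted p = 8.3e-04). DUSP10 had, in this line, 16.6, 18.04, 17.4 and 20.0 CPM at 2 h and 21.8, 21.3 and 27.0 CPM at 24 h, against 7.67, 7.32, 7.62 and 7.94 CPM in DMSO. All treated libraries lay above all DMSO libraries, and DUSP10 rose by 1.24 ± 0.09 at 2 h (adjusted p = 1.71e-13) and by 1.61 ± 0.09 at 24 h (adjusted p = 3.02e-16). In Molm-14 it was at -0.23 ± 0.09 (adjusted p = 0.02) and 0.61 ± 0.09 (adjusted p = 1.59e-07), not called. In OCIAML-3, 1 of the 5 was called higher at 2 h against 3.23% of all genes, and 2 at 24 h against 18.4%. The other was DUSP8, at 1.01 ± 0.18 (adjusted p = 5.5e-06). That call sat at the limit and ended with 1 CPM added (0.69), without OCIAML-3 DMSO replicate 2 (0.93) or 3 (0.86) and without OCIAML-3 24 h replicate 2 (0.96) or 4 (0.95). A pseudogene, DUSP8P5, at 3.46 to 8.18 CPM over the 6 group means, could share reads with DUSP8. The differences between the lines at 2 h were called for DUSP10 (1.47 ± 0.12), DUSP8 (-1.83 ± 0.23) and DUSP16 (-2.14 ± 0.18), with adjusted p of 3.32e-11, 1.72e-07 and 3.42e-11 in the same order. DUSP9 had 4.56, 4.52, 3.45 and 3.63 CPM at 2 h and 2.00, 1.39 and 1.44 CPM at 24 h, against 4.50, 4.34, 4.39 and 3.31 CPM in DMSO, and fell at 24 h by 1.37 ± 0.29 (adjusted p = 8.74e-05; -0.98 and not called with 1 CPM added). Only 1 read was found for it in the 4 Molm-14 DMSO libraries, against 328 in OCIAML-3, a ratio of 290 (51.6 to 11470).

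**Figure D4:**
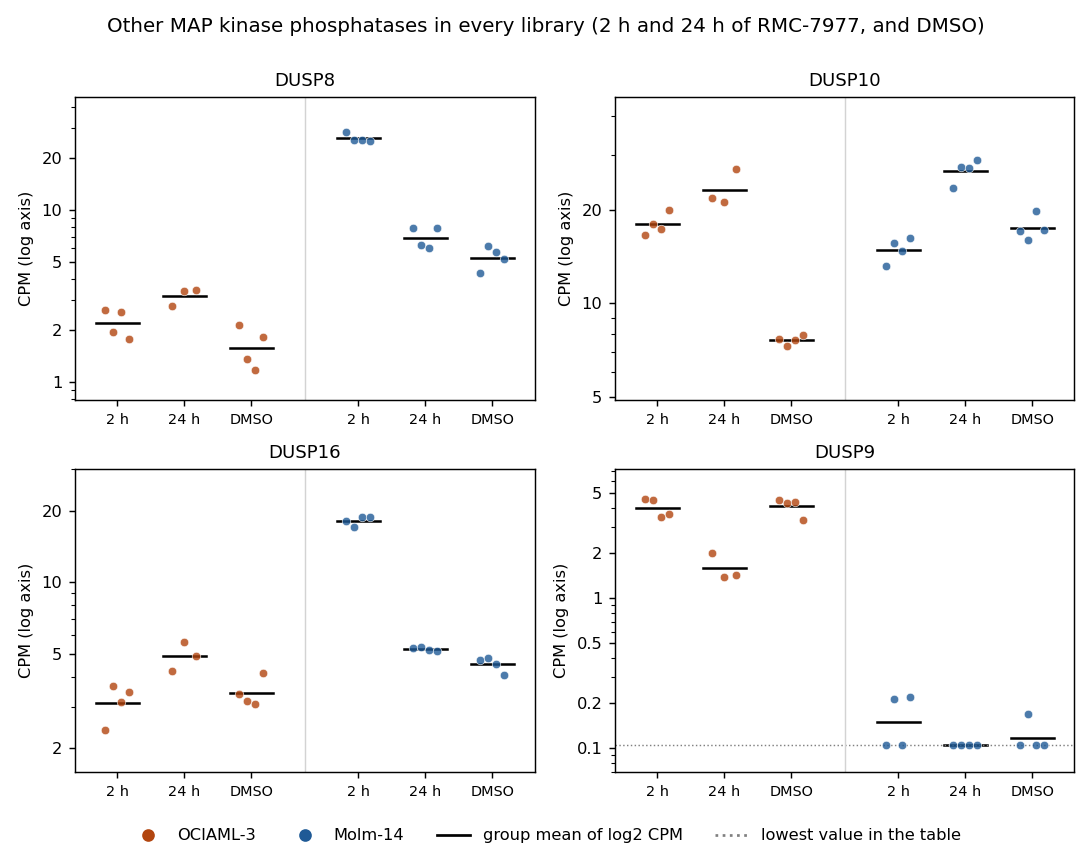
CPM of DUSP8, DUSP10, DUSP16 and DUSP9 in each library on log axes, drawn as for the 6 members. DUSP8 and DUSP16 were at 25.2 to 28.5 and 17.04 to 18.9 CPM in Molm-14 at 2 h, above all other groups; DUSP9 was at or near the lowest value in all Molm-14 libraries.

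Other genes of the pathway were taken from named lists, whose counts stand against the shares of all genes called higher and lower: 3.23% and 3.35% in OCIAML-3 at 2 h, 18.4% and 17.1% at 24 h, 4.3% and 2.98% in Molm-14 at 2 h, and 11.4% and 6.57% at 24 h. Of 12 measured MAP kinases, 0 were called at 2 h in either line by limma or voom (8 in OCIAML-3 and 7 in Molm-14 at an unadjusted p below 0.05). Of these 12 only MAPK13, a p38 kinase, rose at 24 h, by 1.39 ± 0.12 in OCIAML-3 and 1.24 ± 0.11 in Molm-14. MAPK3, which encodes ERK1, was higher in OCIAML-3 than in Molm-14 in DMSO by 2.31 ± 0.08 (adjusted p = 2.46e-21). In the same comparison MAPK13 (-4.12 ± 0.11) and MAPK11 (-1.88 ± 0.11), another p38 kinase, were called lower in OCIAML-3. Of 15 measured MAP kinase kinases, RAF proteins and their partners, 2 were called higher and 1 lower in OCIAML-3 at 2 h and 4 and 1 at 24 h (18.4% and 17.1% of all genes). In Molm-14, 1 was called higher at 2 h and 3 at 24 h (4.3% and 11.4% of all genes). MAP3K8, a kinase that activates MEK outside RAF, rose in OCIAML-3 at 2 h (1.02 ± 0.12) and 24 h (2.20 ± 0.13) and in Molm-14 at 2 h (1.31 ± 0.12). Of 9 measured phosphatases of MAP kinases from other families, 3 fell in OCIAML-3 at 24 h and 1 in Molm-14 at 2 h. That 1 was PTPN7, a haematopoietic tyrosine phosphatase of ERK and p38, which fell by 1.062 ± 0.042 in Molm-14 at 2 h and by 1.65 ± 0.05 in OCIAML-3 at 24 h. The other 2 were PPP2CA (-1.17 ± 0.04) and PPP2R2A (-1.11 ± 0.05), subunits of protein phosphatase 2A.

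Among 20 measured atypical and other dual-specificity phosphatases, 0 were called higher and 2 lower in OCIAML-3 at 2 h, and 3 and 3 at 24 h, where 18.4% of all genes were called higher and 17.1% lower. In Molm-14, 1 rose at 2 h and 3 at 24 h, and none was called lower; voom called 1 and 3, and 12 and 16 had an unadjusted p below 0.05 in limma in either direction. PTP4A3, a membrane-bound phosphatase of the PRL family, rose in Molm-14 at 2 h, to 282 CPM against 50.4 CPM in DMSO (2.49 ± 0.07, adjusted p = 1.47e-23). It was also called higher there at 24 h (2.09 ± 0.07, adjusted p = 3.00e-22). DUSP22 rose at 24 h in both lines, by 2.08 ± 0.07 in OCIAML-3 and 1.23 ± 0.07 in Molm-14. SSH3, a phosphatase of cofilin, fell in OCIAML-3 at 2 h (-1.44 ± 0.07) and 24 h (-1.59 ± 0.07), and CDKN3 fell there at 24 h (-1.74 ± 0.08). The medians of this list were between -0.10 and 0.11 in the 4 comparisons.

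Of 12 other measured feedback inhibitors of RAS and ERK, 5 fell in each line at 2 h, where 3.35% of all genes fell in OCIAML-3 and 2.98% in Molm-14. At 24 h, 4 rose and 5 fell in OCIAML-3 (18.4% and 17.1% of all genes), and 1 rose and 2 fell in Molm-14 (11.4% and 6.57%). SPRED2, which blocks activation of RAF by RAS, fell in OCIAML-3, at -1.63 ± 0.08 at 2 h and -1.85 ± 0.08 at 24 h. In Molm-14 it fell by 1.24 ± 0.08 at 2 h and was at 0.00 ± 0.08 at 24 h (adjusted p = 0.993), with 29.6 CPM against 29.7 CPM in DMSO. SPRY4, of the Sprouty family, fell in all 4 comparisons, at -5.70 ± 0.19 and -4.62 ± 0.21 in OCIAML-3 and -5.34 ± 0.19 and -3.10 ± 0.19 in Molm-14 at 2 and 24 h. ERRFI1, an inhibitor of the EGF receptor, rose at 24 h in both lines (1.39 ± 0.11 in OCIAML-3 and 1.44 ± 0.10 in Molm-14). Of 23 transcription and RNA decay factors tied to DUSP genes, 1 rose and 5 fell in OCIAML-3 at 2 h, and 3 and 7 at 24 h. In Molm-14 1 rose and 6 fell at each time, where 4.3% and 2.98% of all genes did so at 2 h and 11.4% and 6.57% at 24 h. ETV5, an ETS factor, fell in all 4, at -2.71 ± 0.15 and -4.03 ± 0.16 in OCIAML-3 and -2.83 ± 0.15 and -1.77 ± 0.15 in Molm-14. EGR1 was at -3.62 ± 0.20 and -4.53 ± 0.21 in OCIAML-3 and at -5.37 ± 0.20 and -5.72 ± 0.20 in Molm-14, so that it was called lower at 24 h in the line where DUSP6 was at its DMSO level. JUN rose in Molm-14 at 2 h by 2.46 ± 0.11 (adjusted p = 4.46e-18) and was not called in OCIAML-3 at 2 h (-0.38 ± 0.11).

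To describe which genes had the most similar course, each library's log2 CPM was taken as its difference from the DMSO mean of its line and correlated over the 23 libraries. The libraries share line, treatment and controls, so the Pearson r below are descriptions. Among the members, DUSP5 and DUSP7 (0.933), DUSP4 and DUSP6 (0.927) and DUSP4 and DUSP5 (0.919) were closest, and DUSP1 and DUSP7 were furthest apart (0.238). Between DUSP2 and DUSP7, r was 0.586 over all 23 libraries, 0.919 within OCIAML-3 and 0.713 within Molm-14. Between DUSP1 and DUSP7, r was 0.693 within OCIAML-3 and -0.316 within Molm-14. Of all genes outside the 6, the course of DUSP6 was nearest to SPRED2 (0.988), DMPK (0.982) and CHST11 (0.969). DUSP7 was nearest to TFAP4 (0.990), MYC (0.987) and PHACTR3 (0.986), and DUSP5 to NUDT19 (0.972), UXS1 (0.969) and FOSL1 (0.968). DUSP4 was nearest to TNFRSF21 (0.970), UXS1 (0.961) and IKBKE (0.959). DUSP2, whose level did not return in Molm-14, was nearest to SLC20A1 (0.989), CLIC1 (0.987) and LRP8 (0.985). DUSP1 had looser neighbours, SLC35C1 (0.870), HS3ST3A1 (0.850, at the lowest value in all Molm-14 libraries) and CBX6 (0.841). As an example of such a pair, MYC had log2 fold changes of -2.37 and -2.73 in OCIAML-3 and -3.26 and -0.91 in Molm-14 at 2 and 24 h, beside those of DUSP7 above.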

How the data were processed

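Poly(A) RNA of 24 labelled libraries in 6 groups was sequenced. Each of the 23 library columns used matched 1 sample by name, and 0 columns had no sample. The authors deposited log2 CPM for 13033 gene symbols. The tools the authors named, per the submitters' processing notes, include Trimmomatic 0.36, STAR 2.7.8a, limma 3.38.3, edgeR 3.24.3 and RSEM 1.3.3, with hg38 as the build and no settings. The lowest log2 CPM was -3.26 (0.105 CPM) in every library, so fold changes of genes with few reads are understated. Of values up to 20 reads, 75.1% to 82.5% lay within 0.05 of a whole read, so read numbers are recovered estimates and no count model was the main test.

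One limma 3.58.1 fit (R 4.3.3, trend and robust options) of 6 group means gave 10 comparisons, each adjusted over all 13033 genes, and was tested on simulated data. The labels do not say whether libraries of a group were separate cultures: the p-values reflect spread among libraries that may be technical. No pair of libraries was identical. Named genes are the 6 members, the 3 genes nearest to each, and up to 4 called genes per list and comparison with the smallest adjusted p. The members and lists were chosen with earlier results of these data known. Alternatives covered scaling, pseudocount, a filter at 5 CPM, voom, the replicate block, the fold limit and each library left out.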

Additional observations from a re-analysis of the deposited data

Results flagged for a closer look

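The difference in response between the lines (OCIAML-3 minus Molm-14, log2 scale, limma, adjusted over all genes) was past the threshold for these genes. DUSP2 was at -2.09 at 2 h, -4.15 at 24 h and -2.06 between 24 h and 2 h. DUSP6 was at -1.35, -5.52 and -4.17 in the same comparisons. The 2 h value is the one that turned round with a pseudocount, which lies above the level of DUSP6 in treated OCIAML-3. DUSP4 was at -2.18 at 24 h and -2.15 between 24 h and 2 h, and DUSP1 at -1.10 at 2 h. Of the other MAP kinase phosphatases, DUSP8 was at -1.83 at 2 h and 2.45 between the times, DUSP16 at -2.14 and 2.44, and DUSP10 at 1.47 at 2 h. DUSP9 was at -1.20 at 24 h, where Molm-14 had 0 reads in the 24 h libraries and 1 in DMSO, so the fitted value rests on OCIAML-3 reads; it was -0.96 and not called with 1 CPM added or with voom.

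Single libraries were marked as apart from the rest of their group for 2 genes. The mark weighs the gap against the range of the group, so the gap itself can be small. DUSP8 was at 28.5 CPM in Molm-14 2 h replicate 1, against 25.2 to 25.6 CPM in the others. DUSP9 was at 3.31 CPM in OCIAML-3 DMSO replicate 4, against 4.34 to 4.50 CPM, and at 0.17 CPM in Molm-14 DMSO replicate 2, a single read, against 0.105 CPM. Chance marks about 1 in 20 groups in this way, and 55 groups were examined.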

How the results depend on the processing

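Of 1130 values of single members recomputed under the alternatives, 1066 kept their direction and side of the threshold, 9 lost a call and 31 gained one. The filter at 5 CPM and the dropped fold limit cannot change the direction of a value, and dropping the limit can only add calls. A called value turned round once, DUSP6 in the difference between lines at 2 h (0.25 with a pseudocount of 1 CPM). Its level in treated OCIAML-3 lies below that constant, so this setting cannot decide the difference. Values that were called under neither setting changed sign 23 times, among them DUSP4 in that difference, 1.10 with voom. That pseudocount, which shrinks low genes, left 3 members called in Molm-14 at 2 h (DUSP4 at -0.96 and DUSP5 at -0.98 lost the call), 0 in OCIAML-3 between 24 h and 2 h (DUSP2 at -0.89), 1 in Molm-14 between 24 h and 2 h and 1 in the difference between lines between the times. With no fold limit, 6 of 6 members were called in OCIAML-3 at 2 h (8106 of all 13033 genes) and 3 in Molm-14 at 24 h (9950 genes). Between 24 h and 2 h, 2 were called in OCIAML-3 (10117 genes) and 4 in Molm-14 (8901 genes). In the difference between lines, 5 were called at 24 h (8527 genes) and 5 between the times (7842 genes). Over all genes, the pseudocount left 538 called in OCIAML-3 at 2 h and 446 in the difference at 2 h, where 858 and 735 were called. With no fold limit the 10 comparisons called 5039 to 11002 genes, against 735 to 4620 with it. Scaling to library totals moved the median log2 fold change of all genes to 0.18 in OCIAML-3 at 24 h and 0.11 between 24 h and 2 h there, and the split in Molm-14 at 24 h to 1738 higher and 629 lower, against 1481 and 856; no called member changed direction under it. It and median-of-ratios scaling took DUSP7 in Molm-14 between 24 h and 2 h past the limit (1.04 and 1.02), and voom did so for DUSP1 in OCIAML-3 at 2 h (-1.05). Leaving out each library kept all counts of members within 1.5 times (100 of 100), a rule that passes a move from 3 to 4. Counts did move: over these fits they were 3 to 4 in OCIAML-3 at 2 h and 4 to 5 at 24 h. They were 2 to 3 in Molm-14 between 24 h and 2 h. In the difference between lines they were 2 to 3 at 2 h and 3 to 4 at 24 h and between the times. In Molm-14 against DMSO they stayed at 5 at 2 h and 1 at 24 h. The difference of DUSP10 at 24 h (0.99) sat at the limit. For deviations from group means, 22 same-numbered pairs of libraries had r of -0.401 to 0.316 (median 0.006, 7 above 0.1). The 66 pairs with different numbers had r of -0.369 to 0.381 (median 0.006, 13 above 0.1). Whether replicate numbers pair the libraries is not settled by these values. With the replicate number as a block, 10 of 10 member counts stayed within 1.5 times. DUSP8 in OCIAML-3 at 24 h then went to 0.97 and lost its call. The nearest genes of each member depend on the measure: with Spearman's rho or within 1 line, 0 or 1 of the 3 remained, except for DUSP7 within Molm-14. Depth limits DUSP6 in treated OCIAML-3, DUSP2 in OCIAML-3 at 24 h and DUSP4 in Molm-14, at 0 to 24 reads a library. It also limits DUSP1 in treated OCIAML-3, at 8 to 14 reads a library at 2 h and 8 to 25 at 24 h.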
